A study of Mus musculus with 50 samples.

Results

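The proteasome subunit genes of mouse motor neurons were followed across spinal cord development, adult life and stem cell culture. The set comprised every gene whose symbol is Psm followed by a letter from a to g and a number, which gave 49 of the 55385 genes listed in each RNA-seq file. By their known roles these were 7 alpha ring genes, 7 beta ring genes, 9 base genes (6 ATPases and 3 others), 8 lid genes, 7 assembly factors, 6 activator or inhibitor genes and 5 immunoproteasome or tissue-specific core genes. The rule used names only and no measured value, though the members were chosen with earlier results of these data known. 43 of them were abundant enough to be tested in tissue and 38 in culture.

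RNA was sequenced in 28 libraries and open chromatin was profiled by ATAC-seq in 22 libraries of motor neurons. Motor neurons at E10.5 were whole cells sorted for an Hb9-GFP transgene. For E13.5 and every later age (P4, P13, P21, P56, then 2 years) nuclei came from the spinal cords of Chat-Cre;SUN1-GFP-3xMYC mice (the name in the labels, while the study's methods call the mouse line SUN1-sfGFP-Myc), in which Cre from the Chat locus tags the nuclear envelope, so that cholinergic neurons other than motor neurons carry the tag too. Embryos or animals were pooled for each replicate. Tagged nuclei were pulled down with beads for RNA and sorted by flow cytometry for ATAC-seq. The study's methods describe the E13.5 and P4 nuclei for RNA as less pure, with material from blood vessels. For culture, an embryonic stem cell line with the same genotype in its labels as those mice was differentiated into motor neurons (DIV0). These were grown with cortical astrocytes for 7 days (DIV7) or 28 days (DIV28). A further DIV28 group received the sodium channel blocker tetrodotoxin (TTX, 1 µM) for the whole 28 days. There were 3 RNA libraries each at E10.5, P4, P21, P56, DIV28 and DIV28 with TTX, and 2 each at E13.5, P13, 2 years, DIV0 and DIV7. 1 library with a DIV0 title was counted as DIV28 replicate 3, because the study has 2 DIV0 and 3 DIV28 RNA libraries and its file is named for DIV28.

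The 26S proteasome is the main machine for degrading ubiquitin-tagged proteins in the cytoplasm and nucleus. Its barrel-shaped 20S core is built of stacked alpha and beta rings, with the protein-cutting sites on the beta subunits Psmb5, Psmb6 and Psmb7, and a 19S cap made of a base and a lid recognises, unfolds and feeds in the substrate. Cells stimulated by interferon exchange the catalytic subunits for Psmb8, Psmb9 and Psmb10, and the PA28 activator (Psme1 and Psme2) can dock in place of the cap. Neurons depend on this system for protein turnover at synapses and for clearing damaged proteins.

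Promoters are shown first, since the members moved together while a few stood apart. RefSeq promoters (GRCm38.p6) were at hand for 41 of the 49 genes, and the 250 bases before the annotated start were searched on both strands for the antioxidant response element core TGACNNNGC, which the proteasome regulators Nfe2l1 and Nfe2l2 recognise, for CCAAT and for the ETS site CCGGAAG. The following 4 represent a catalytic subunit (Psmb5), the base ATPase with the largest fall after E13.5 (Psmc1), a ubiquitin receptor (Psmd4) and an activator that was not called lower (Psme4). They are written 5′ to 3′ on the strand of the gene, matches are in capitals, and no match overlaps another.
Psmb5: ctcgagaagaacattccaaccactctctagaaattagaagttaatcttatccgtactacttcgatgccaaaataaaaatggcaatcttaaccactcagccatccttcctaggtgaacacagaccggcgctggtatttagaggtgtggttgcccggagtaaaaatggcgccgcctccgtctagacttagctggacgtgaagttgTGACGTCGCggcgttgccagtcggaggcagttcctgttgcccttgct
Psmc1: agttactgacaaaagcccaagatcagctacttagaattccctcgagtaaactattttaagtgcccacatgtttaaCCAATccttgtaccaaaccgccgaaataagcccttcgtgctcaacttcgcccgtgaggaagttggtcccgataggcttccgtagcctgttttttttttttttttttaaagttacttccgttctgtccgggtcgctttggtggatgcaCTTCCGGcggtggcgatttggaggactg
Psmd4: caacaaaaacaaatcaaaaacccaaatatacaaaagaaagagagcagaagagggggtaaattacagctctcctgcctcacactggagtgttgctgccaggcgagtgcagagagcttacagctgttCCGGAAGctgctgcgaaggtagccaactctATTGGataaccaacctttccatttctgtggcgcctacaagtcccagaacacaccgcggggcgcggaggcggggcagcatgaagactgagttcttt
Psme4: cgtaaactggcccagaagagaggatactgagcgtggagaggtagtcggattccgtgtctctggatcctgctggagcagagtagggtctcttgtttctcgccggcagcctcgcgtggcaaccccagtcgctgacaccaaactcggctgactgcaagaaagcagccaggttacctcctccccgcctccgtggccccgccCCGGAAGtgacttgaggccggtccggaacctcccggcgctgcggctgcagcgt
The Psmb5 window (chr14:54617996-54618245, minus strand) held the response element core starting 47 bases before the start. The Psmc1 window (chr12:100109952-100110201, plus strand) held CCAAT 175 bases and a reverse-strand ETS site 28 bases before the start. The Psmd4 window (chr3:95042615-95042864, minus strand) held an ETS site at 125 bases and a reverse CCAAT at 95 bases. In Psme4 (chr11:30771525-30771774, plus strand) the single match was an ETS site at 53 bases.

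The ETS letters occurred in 11 of the 41 members (26.8%), against 7.05% of all 27025 promoters and 13.6% of the 10289 promoters of tested genes. 8 of those 11 were among the 14 base and lid promoters, while 0 of the 11 alpha and beta ring promoters held the letters. The response element core was in 5 members (12.2%), against 10.1% of all promoters and 11.9% of those of tested genes. CCAAT was in 14 members (34.1%), against 34.5% and 37.1%. The median log2 change of tested members from E13.5 to P4 was -1.31 with and -1.53 without the ETS letters, -1.34 and -1.48 for the response element core, and -1.64 and -1.36 for CCAAT. A match describes letters in the window and was not tested as a binding site.

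RNA libraries held between 2704682 and 21823500 counts. Markers of motor neurons were detected at every age and culture day, with 0 of the 6 markers at 0 throughout a group. Endothelial markers (8 genes) summed to 2484 to 4739 CPM (counts scaled to library size) at E13.5, 1146 to 1565 CPM at P4, 77.6 to 112 CPM at P13 and 15.8 CPM or less from P21. Erythroid markers (10 genes) summed to 2981 to 3507 CPM at E13.5, when each was detected, and 220 to 298 CPM at P4, when Hba-x, Hbb-bh1 and Hbb-y were at 0. Transcripts encoded by mitochondrial DNA summed to 4796 to 5350 CPM in the whole cells of E10.5 and 832 to 927 CPM in the E13.5 nuclei.

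The summed level of the proteasome genes was about the same before birth and far lower afterwards. It was 3924 to 4311 CPM at E10.5 and 3501 to 4300 CPM at E13.5, dropped to 1306 to 1399 CPM at P4, and was 1907 to 1962 CPM at P13. It returned to 1338 to 1393 CPM at P21, was 1297 to 1355 CPM at P56 and lay at 1459 to 1489 CPM at 2 years. The embryonic and postnatal ranges did not overlap, and P13 stood above its neighbours in both libraries. In bulk samples, fewer cells of a type and less RNA per cell cannot be told apart.

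**Figure D1:**
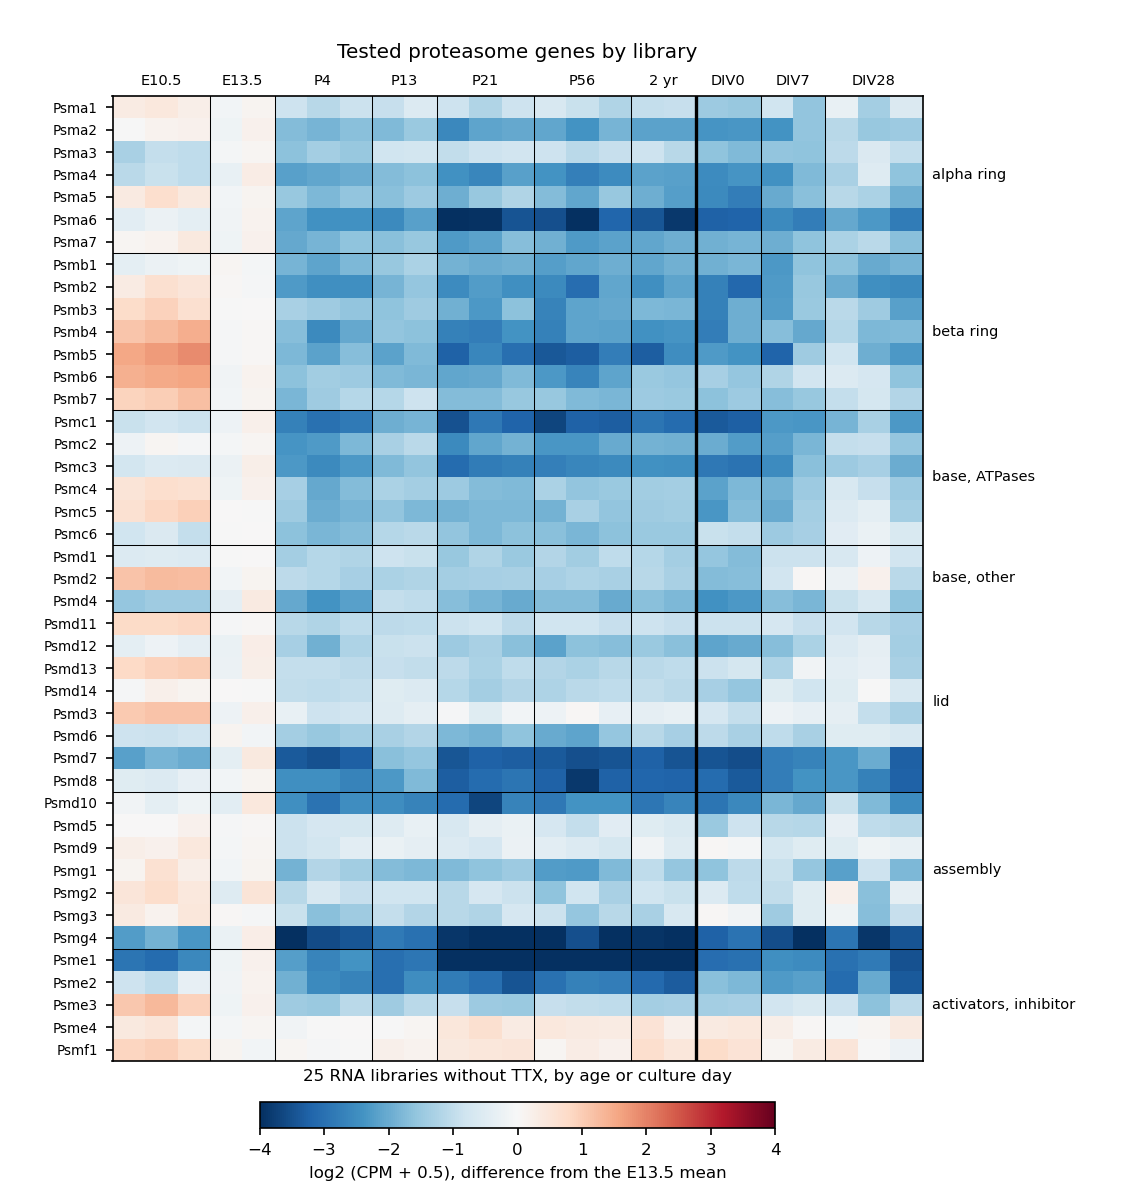
Each row is a tested proteasome gene and each column an RNA library without TTX, with colour giving the difference in log2 (CPM + 0.5) from the mean of the E13.5 libraries. Most rows turn blue at P4 and stay blue, while Psme4 and Psmf1 in the lowest rows stay near white. The lid gene Psmd3 is also close to its E13.5 level at P21 and P56.

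Per unit of length, the core and cap genes stood above the assembly factors at E10.5 and P56. At E10.5 the median over genes of the mean TPM, a transcript abundance corrected for length, was 154 for the beta ring, 127 for the base ATPases, 90.9 for the alpha ring, 84.1 for the lid and 23.1 for the assembly factors. At P56 the corresponding medians were 7.84, 17.3, 16.0, 15.1 and 2.32 TPM. The beta ring had the highest of these medians at E10.5 and, at P56, the lowest among rings, ATPases and lid, with Psmb5 lowest in the ring (2.08 TPM on average). In the E13.5 nuclei the medians were 59.8 TPM for the beta ring, 62.4 for the ATPases, 95.2 for the alpha ring and 42.1 for the lid. E10.5 libraries are whole cells and the later ones nuclei, so age and preparation cannot be told apart in the change of order after E10.5. Among the non-ATPase base genes the most abundant was Psmd2 at E10.5 (166 TPM on average) and Psmd4 at E13.5 (303 TPM) and P56 (43.5 TPM).

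From E10.5 to E13.5 members were called in both directions, more of them lower than higher. A gene was called changed when its unadjusted p in edgeR's quasi-likelihood test was under 0.001 and the change was at least 2-fold, and adjusted p-values are Benjamini-Hochberg values over all genes of the fit. Of 43 tested members, 10 were called lower and 4 higher, where 19.4% of all 15030 genes were called lower and 24.6% higher. The share called lower was near the background, and the share called higher was below it. The median log2 change was -0.40 over the members and 0.13 over all genes, and the first of these was -0.10 without E10.5 replicate 3. The step also replaces sorted whole cells by nuclei, and the effects of age and preparation cannot be told apart.

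Psmb5, the chymotrypsin-like catalytic subunit, read 83.1, 88.3 and 108.5 CPM in the E10.5 libraries and 23.5 and 25.1 CPM at E13.5. All 3 earlier libraries lay far above both later ones (log2 change -1.94 ± 0.22 SE, adjusted p = 6.8e-07). Psmb6, the caspase-like subunit, went from 123 to 142 CPM down to 36.7 and 43.7 CPM (-1.70 ± 0.17, adjusted p = 1.0e-07). The other genes called lower were Psmb4 and Psmb7 of the beta ring, the base genes Psmc5 and Psmd2, the lid genes Psmd3 and Psmd13, the nuclear activator Psme3 and the inhibitor Psmf1, between -1.004 and -1.48. The beta ring did not move as a whole, with 4 of its 7 genes called and Psmb1 at 100.9 CPM on average before and 105.5 CPM after.

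Against that direction, 4 members rose. Psme1, the PA28 alpha activator subunit, read 18.9, 16.3 and 24.7 CPM at E10.5 and 113 and 143 CPM at E13.5 (2.68 ± 0.18, adjusted p = 1.3e-09). Psmd7, a lid scaffold that pairs with the deubiquitinase Psmd14, read 91.8, 110 and 107.5 CPM and then 276 and 472.5 CPM (1.86 ± 0.17, adjusted p = 4.4e-08). Groups did not overlap in either gene, although the E13.5 libraries themselves differed widely for Psmd7. Psmg4, a chaperone of 20S assembly, read 7.23, 8.80 and 6.85 CPM and then 26.2 and 37.0 CPM (2.05 ± 0.35, adjusted p = 4.8e-05). Psmd4, a ubiquitin receptor of the base, read 106, 111.5 and 119 CPM and then 214 and 345 CPM (1.32 ± 0.17, adjusted p = 2.7e-06).

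From E13.5 to P4 the proteasome genes fell almost as a whole. 31 of the 43 tested members were called lower and 0 higher, where 19.0% of all genes were called lower and 23.8% higher. 41 members had a negative log2 change, and the median was -1.48 over the members against 0.12 over all genes. At an adjusted p under 0.05 all 41 of these were lower, where 31.7% of all genes were lower by that limit. Of the alpha ring 6 of 7, of the beta ring 7 of 7, of the base 8 of 9, of the lid 4 of 8, of the assembly factors 3 of 7 and of the activators and inhibitor 3 of 5 were called. These counts, and the later ones against E13.5, include Psmd10, Psmg1, Psmg2 and Psmg4. Those genes were abundant enough to be tested only through E10.5 and E13.5, so a fall was favoured by the filter.

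Over the same step the endothelial markers went from 2484 to 4739 down to 1146 to 1565 summed CPM, the erythroid markers from 2981 to 3507 down to 220 to 298, and the markers of dividing cells (7 genes) from 784 to 1485 down to 154 to 191, with 0 of the 7 at 0 in either group. Other lists were higher at P4, the astrocyte markers (8 genes) from 181.5 to 204 up to 617 to 754, the oligodendrocyte markers (7 genes) from 57.4 to 72.3 up to 400 to 522, and the motor neuron markers from 262 to 487 up to 632.5 to 769, with Gfap and Mog at 0 at E13.5. The part of these lists in the fall of the proteasome genes was not tested. In the whole cells of E10.5 the endothelial markers summed to 3.88 CPM or less, with Cdh5 at 0. The erythroid markers summed to 2.80 CPM or less, with 5 of 10 at 0, and the markers of dividing cells to 853 to 1844 CPM. The proteasome genes summed to 3924 to 4311 CPM there, against 3501 to 4300 CPM at E13.5. The E10.5 libraries are whole cells and those of E13.5 nuclei, so these sums do not separate age from preparation. The part of the markers was not tested.

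In the alpha ring, the outer gate of the core, median change was -1.59. Psma6 fell most, from 79.8 and 95.5 CPM at E13.5 to 22.4, 18.1 and 18.1 CPM at P4 (-2.16 ± 0.21, adjusted p = 9.2e-08). Psma1 changed least, from 41.3 and 47.0 CPM to 27.7, 23.2 and 27.7 CPM, a difference under the 2-fold limit (-0.76 ± 0.18, adjusted p = 0.001). In both genes every P4 library lay below both E13.5 libraries.

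The beta ring, which carries the active sites, had a median change of -1.75. Psmb2 fell most, from 46.3 and 43.4 CPM to 10.1, 8.97 and 8.83 CPM (-2.27 ± 0.22, adjusted p = 9.2e-08), and Psmb3, a structural neighbour, was with Psmb7 the least changed, from 42.1 and 42.5 CPM to 19.1, 17.7 and 15.9 CPM (-1.27 ± 0.19, adjusted p = 1.4e-05). All 3 catalytic genes were called lower. Psmb5 went from 23.5 and 25.1 CPM to 7.53, 5.85 and 8.12 CPM (-1.77 ± 0.24). Psmb6 changed from 36.7 and 43.7 CPM to 14.2, 17.3 and 16.2 CPM (-1.34 ± 0.17). Psmb7, the trypsin-like subunit, changed from 53.0 and 60.0 CPM to 17.6, 23.8 and 29.1 CPM (-1.27 ± 0.19). None of these groups overlapped, and the adjusted p-values were 4.7e-06, 2.2e-06 and 1.2e-05.

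Among base genes, which form the unfolding motor of the cap, the median was -1.58. Psmc1, an ATPase subunit, went from 228 and 298 CPM to 44.5, 37.1 and 41.3 CPM (-2.68 ± 0.18, adjusted p = 1.5e-09). Psmd2, the large scaffold that binds ubiquitin-like shuttle proteins, went from 124 and 144 CPM to 73.1, 68.4 and 60.6 CPM, just short of 2-fold (-0.99 ± 0.12, adjusted p = 2.0e-06). Psmd4 gave back its earlier rise, from 214 and 345 CPM to 74.2, 59.0 and 67.8 CPM (-2.06 ± 0.18, adjusted p = 2.6e-08).

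The lid, which removes ubiquitin chains, had a median of -1.08 and ranged more widely than the rings or the base. Psmd7 showed the largest fall among the lid genes, from 276 and 472.5 CPM to 39.8, 36.5 and 42.5 CPM (-3.24 ± 0.18, adjusted p = 3.4e-10). Its partner Psmd14, the deubiquitinase itself, had a smaller fitted change, from 57.6 and 54.9 CPM to 31.8, 31.9 and 32.7 CPM (-0.81 ± 0.14, adjusted p = 5.4e-05), which is under 2-fold. Psmd3, a lid scaffold, read 64.7 and 85.2 CPM and then 68.0, 47.6 and 49.6 CPM, so its groups overlapped (-0.45 ± 0.18, adjusted p = 0.036).

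Assembly factors spanned the widest range. Psmg4 went from 26.2 and 37.0 CPM to 1.08, 2.503 and 2.86 CPM (-3.88 ± 0.41, adjusted p = 2.9e-07), the lowest value of the 43 members. That value rests on 5, 12 and 12 counts at P4, and Psmg4 was abundant enough to be tested only through E10.5 and E13.5. Psmg1, which helps build the alpha ring, went from 10.9 and 12.6 CPM to 3.23, 5.63 and 4.77 CPM (-1.37 ± 0.28, adjusted p = 0.00028). It had 15, 27 and 20 counts at P4 and, like Psmg4, entered the test only through E10.5 and E13.5. The chaperones of the base differed in their fitted changes. Psmd5 read 35.2 and 36.6 CPM and then 22.4, 25.4 and 25.1 CPM (-0.57 ± 0.17, adjusted p = 0.0066), and Psmd9 read 19.99 and 22.2 CPM and then 12.9, 14.2 and 17.7 CPM (-0.51 ± 0.19, adjusted p = 0.027), while Psmd10 (gankyrin), a further base chaperone with few reads, was at -2.83 ± 0.36.

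Of the activators and the inhibitor, 3 genes fell and Psme4 and Psmf1 did not pass the test. Psme1 went from 113 and 143 CPM to 31.2, 22.7 and 26.96 CPM (-2.25 ± 0.18, adjusted p = 1.8e-08), and its partner Psme2 went from 25.5 and 30.6 CPM to 7.96, 5.01 and 4.53 CPM (-2.26 ± 0.29, adjusted p = 2.3e-06). Psme3, the nuclear PA28 gamma, went from 54.6 and 67.9 CPM to 25.4, 24.4 and 32.2 CPM (-1.17 ± 0.18, adjusted p = 2.3e-05). These 3 genes were lower in every P4 library. Psme4, which encodes the PA200 activator of nuclei, read 137 and 154 CPM and then 149, 166 and 167 CPM, with overlapping groups (0.14 ± 0.15, adjusted p = 0.43). Psmf1, the PI31 regulator, read 21.7 and 18.1 CPM and then 23.7, 21.9 and 22.2 CPM (0.19 ± 0.15, adjusted p = 0.27). A p above the limit does not show that these 2 genes did not change, and both had a small negative change when genes of low count were kept (-0.09 and -0.04).

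**Figure D2:**
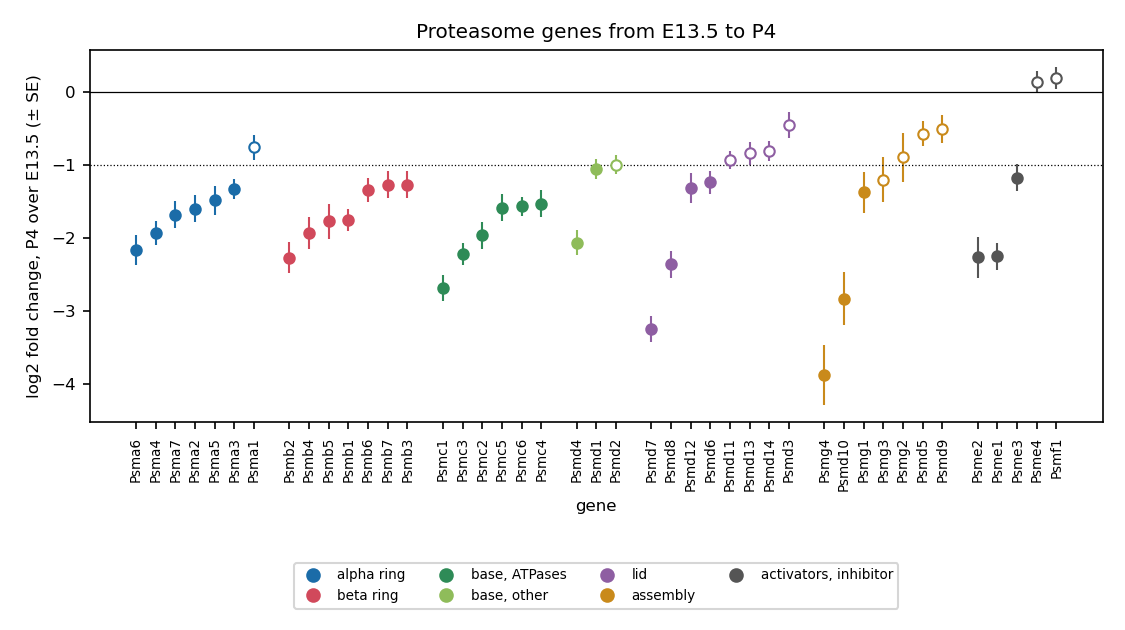
Log2 fold change from E13.5 to P4 with its standard error for each of the 43 tested proteasome genes, coloured by role, with filled circles for called genes and the dotted line at a 2-fold fall. Filled circles run from -1.05 (Psmd1) to -3.88 (Psmg4), and Psme4 and Psmf1 are above 0.

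From P4 to P13 a few cap genes rose. In this step 4 of 43 members were called higher and 0 lower, against 5.80% and 7.54% of all genes, so the share called was near the background. The median was 0.30 over the members and 0.05 over all genes, and 36 members had a positive change. The 4 called genes were all cap genes. Psmd7 went from 39.8, 36.5 and 42.5 CPM to 135.3 and 144 CPM (1.82 ± 0.18, adjusted p = 1.4e-06), and Psmd4 from 74.2, 59.0 and 67.8 CPM to 168 and 157 CPM (1.28 ± 0.18, adjusted p = 3.3e-05). The ATPase genes Psmc1 (1.00 ± 0.18) and Psmc2 (1.014 ± 0.19) lay at the 2-fold limit. Without P4 replicate 2, and likewise without P13 replicate 2, 2 members were called, and likewise with DESeq2, other scaling factors or no filter on low counts.

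From P13 to P21, 8 of 43 members were called lower and 0 higher, against 5.80% lower and 1.50% higher of all genes. The median was -0.60 over the members and -0.08 over all genes. Psmd7 returned to 37.8, 42.9 and 41.2 CPM (-1.78 ± 0.18, adjusted p = 4.5e-06). Psme1 dropped from 18.6 and 19.4 CPM to 5.13, 4.83 and 5.29 CPM (-1.90 ± 0.23, adjusted p = 2.3e-05). Psma6 went from 17.8 and 22.1 CPM to 4.86, 5.90 and 8.46 CPM (-1.63 ± 0.24, adjusted p = 0.00018). Groups did not overlap in these genes, and the others called were the ATPases Psmc1, Psmc2 and Psmc3, the lid gene Psmd8 and the beta gene Psmb4, between -1.04 and -1.33. Oligodendrocyte markers (7 genes) summed to 400 to 522 CPM at P4, 2313 to 2400 at P13 and 1225 to 1640 at P21, with 0 of 7 at 0, and their part in the rise and fall was not tested.

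**Figure D3:**
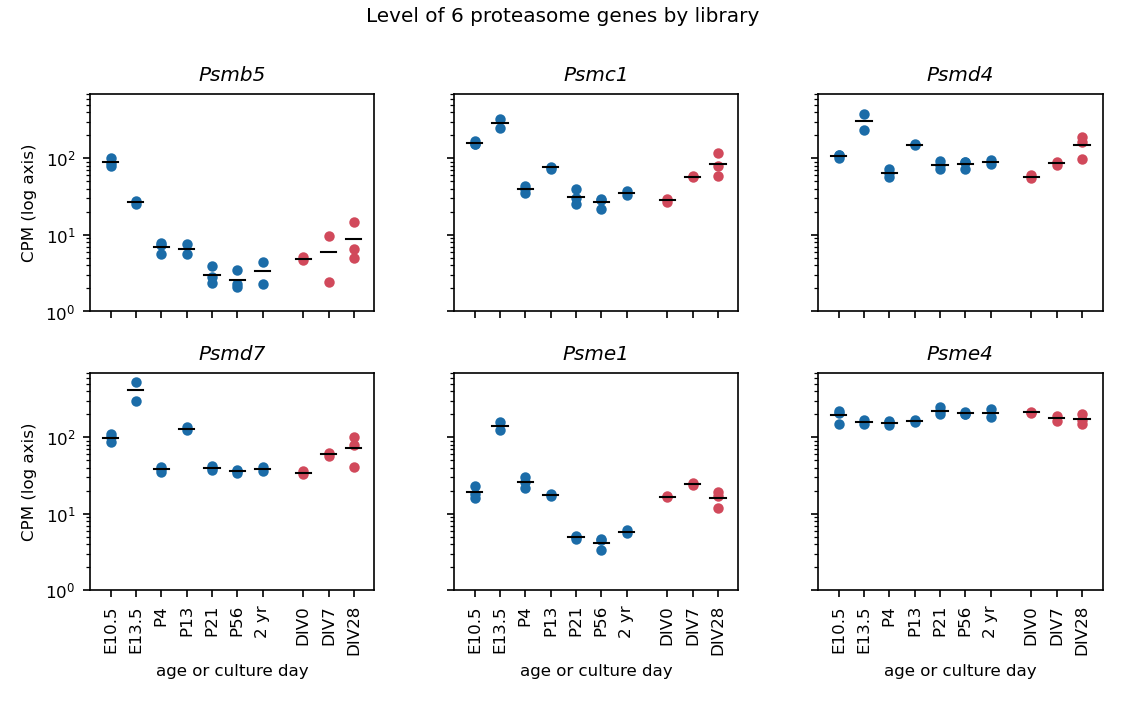
CPM of 6 proteasome genes in each library on a common logarithmic axis, tissue in blue and culture without TTX in red, with a bar at the group mean (libraries scaled together). Psmd7 and Psmd4 peak at E13.5 and again at P13, Psmb5 and Psme1 are lowest from P21, and Psme4 stays between 144 and 249 CPM.

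Over the whole maturation from E13.5 to P21, 32 of 43 members were called lower and 0 higher, against 26.3% and 29.8% of all genes. The median was -1.60 against 0.15. Psme1 changed most, from 113 and 143 CPM to 5.13, 4.83 and 5.29 CPM (-4.65 ± 0.22, adjusted p = 8.4e-12), followed by Psmg4 (-4.37 ± 0.44) and Psma6 (-3.77 ± 0.23). Psmg4 had only 7, 4 and 6 counts at P21. Psme4 reached 223, 257 and 205 CPM at P21, above both E13.5 libraries (0.65 ± 0.16, adjusted p = 0.001), and Psmf1 read 29.1, 31.1 and 31.4 CPM (0.63 ± 0.15, adjusted p = 0.0011). These 2 rises passed an adjusted p of 0.05 but not the 2-fold limit.

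In the adult few differences were detected. From P21 to P56, edgeR and DESeq2 each called 0 of 43 members, where 0.173% of all genes were called by edgeR in either direction. 1 member had an unadjusted p under 0.05, against 6.37% of all genes, namely Psmb6 (-0.41 ± 0.19, adjusted p = 0.77). From P56 to 2 years both tools again called 0 members, where 0.685% of all genes were called by edgeR. 8 members had an unadjusted p under 0.05, against 12.5% of all genes, and 34 of 43 changes were positive (median 0.19 against 0.07 for all genes). Psmb6 went from 8.65, 6.67 and 10.1 CPM at P56 to 15.6 and 16.0 CPM at 2 years (0.90 ± 0.19, adjusted p = 0.046), and it was called when P56 replicate 3 was left out.

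Of the immunoproteasome genes, Psmb8 and Psmb9 had few counts or 0, and Psmb10 had counts in all 28 libraries. Psmb8, the counterpart of Psmb5, had 0 counts in all 3 E10.5 libraries and at most 19 counts in any tissue library. Psmb9, the counterpart of Psmb6, had at most 3 counts in tissue and reached 22 counts in DIV28 replicate 2. Psmb10, the counterpart of Psmb7, had 2 to 46 counts per library. In deposited TPM, Psmb8 never exceeded 1.34 and Psmb9 never exceeded 0.48. Psmb10 was the most abundant of these, at 11.8 TPM on average at E10.5 and 0.94 TPM at P56. In culture Psmb10 averaged 0.75 TPM at DIV0, 5.25 TPM at DIV7 and 0.923 TPM at DIV28.

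The constitutive partners were higher. Psmb5 read 158, 164.5 and 139 TPM at E10.5, 29.0 and 31.7 TPM at E13.5 and 1.65, 1.96 and 2.63 TPM at P56. Psmb6 read 283, 286 and 218 TPM at E10.5 and 8.24, 7.40 and 9.21 TPM at P56. Psmb7 read 163, 166 and 142 TPM at E10.5 and 6.25, 6.43 and 4.88 TPM at P56. At E10.5 and P56 each partner exceeded its immunoproteasome counterpart in every library. A list of 13 interferon and antigen presentation genes summed to 57.1 to 239 CPM in tissue, highest at E13.5. In culture, which was scaled separately, the list summed to 67.85 to 82.2 CPM at DIV0, 118.5 to 133 CPM at DIV7 and 125 to 139.5 CPM at DIV28. The thymus-specific Psmb11 and the testis-specific Psma8 had at most 7 counts in any library, and Psme2b had at most 26.7, with counts that were not whole in 11 of the 12 libraries where it had any.

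**Figure D4:**
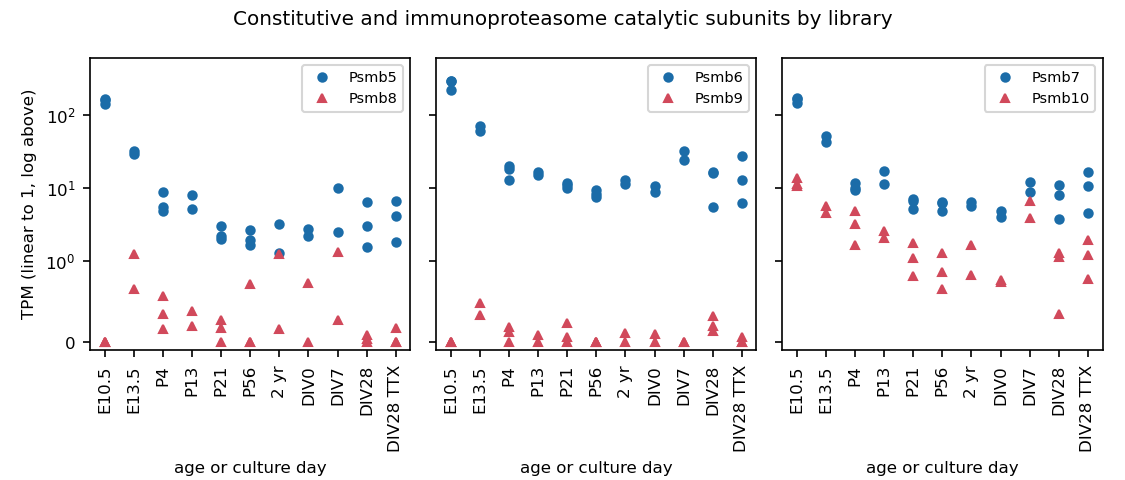
Deposited TPM of each constitutive catalytic subunit (blue circles) and its immunoproteasome counterpart (red triangles) in every RNA library, on an axis that is linear up to 1 and logarithmic above. Psmb8 and Psmb9 lie at or near 0 at every stage, while Psmb10 is highest at E10.5.

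In culture most fitted changes were upward, and few passed the test. Summed levels of the members were 1169 to 1183 CPM at DIV0, 1391 to 1527 CPM at DIV7 and 1462 to 2067 CPM at DIV28. From DIV0 to DIV7 edgeR and DESeq2 each called 0 of 38 members, where 11.2% of all 12890 genes were called by edgeR, and 5 had an unadjusted p under 0.05 against 36.2% of all genes. From DIV7 to DIV28 both again called 0, where 7.70% of all genes were called by edgeR, and 10 had an unadjusted p under 0.05 against 32.6%. The median changes were 0.41 and 0.32 over the members and 0.03 and 0.02 over all genes. Without DIV7 replicate 2 the median from DIV0 to DIV7 was 0.15.

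From DIV0 to DIV28, 1 of 38 members was called higher and 0 lower, against 11.5% and 7.45% of all genes. The called gene was Psmc1, with 25.4 and 27.6 CPM at DIV0 and 73.4, 107 and 54.1 CPM at DIV28 (1.56 ± 0.36, adjusted p = 0.0049). 30 of 38 changes were positive, with a median of 0.69 against 0.06 for all genes. At an adjusted p under 0.05, 14 members were higher, where 21.8% of all genes were higher by that limit, and 8 of these 14 were base genes. Psmd4 went from 51.4 and 56.6 CPM to 150, 176 and 90.2 CPM (1.36 ± 0.34, adjusted p = 0.0083). Psmd14 went from 22.8 and 19.6 CPM to 40.4, 56.1 and 36.7 CPM (1.07 ± 0.27, adjusted p = 0.0092). DIV28 replicate 3 was the lowest DIV28 library for these 3 genes, and without it 4 members were called, whereas leaving out any other DIV0 or DIV28 library left 0 called. Counting it as DIV0, as its title has it, also gave 0.

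Some members had fitted changes below 0. Psme1 read 15.3 and 16.1 CPM at DIV0 and 15.9, 17.4 and 11.1 CPM at DIV28 (-0.08 ± 0.37, adjusted p = 0.88). Psme2 read 8.68 and 8.05 CPM and then 2.93, 6.63 and 2.36 CPM (-1.03 ± 0.60, adjusted p = 0.20). Psme4 read 192 and 205 CPM and then 139, 155 and 189 CPM (-0.30 ± 0.24, adjusted p = 0.35). The spread between the DIV28 libraries was wide for most members.

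With action potentials blocked, no member was called. Between DIV28 and DIV28 with TTX, edgeR and DESeq2 each called 0 of 38 members, where 0.683% of all genes were called by edgeR, and 0 members had an unadjusted p under 0.05 against 7.83% of all genes. The median change was 0.10, against 0.01 over all genes. Psme1 had the largest positive change, from 15.9, 17.4 and 11.1 CPM to 27.6, 31.5 and 13.4 CPM with TTX (0.71 ± 0.33, adjusted p = 0.64). Psmb3 had the most negative, from 20.3, 15.4 and 9.21 CPM to 15.1, 12.4 and 10.96 CPM (-0.22 ± 0.37, adjusted p = 0.97). Both groups overlapped in each gene. Psmc1 was at -0.04 ± 0.30 and Psmd4 at 0.10 ± 0.29.

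Cultures with the same replicate number were treated as pairs, which the sample titles and the study's methods do not state. Within these 3 pairs 15 of 38 members were higher with TTX in all 3, against 22.2% of all genes. 2 members (Psme4 and Psmf1) were lower in all 3, against 2833 of all 12890 genes. The third pair holds the library titled DIV0. With the replicate number as a block in the fit of all culture libraries, 1 member (Psme1) had an unadjusted p under 0.05 against 13.7% of all genes, and in the 6 compared libraries alone it was 5 of 36 against 25.7%. In the fit of 6 libraries Psmd5, a chaperone of the base, passed an adjusted p of 0.05 but not the 2-fold limit (0.61 ± 0.18, adjusted p = 0.047). It read 28.7, 17.5 and 16.6 CPM without TTX and 38.6, 26.8 and 28.05 CPM with it, higher in each pair though the groups overlapped. Psme1 had 0.68 ± 0.22 in that fit (adjusted p = 0.062) and 0.66 ± 0.22 in the fit of all culture libraries (adjusted p = 0.20).

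Culture and tissue were set side by side in a fit of the 25 libraries without TTX. DIV0 motor neurons had less of most members than E13.5 nuclei. 33 of 43 were called lower and 0 higher, against 24.3% and 15.1% of all 15521 genes, with a median of -1.88 against -0.17. Psmd7 read 35.9 and 33.2 CPM at DIV0 and 301 and 520 CPM at E13.5 (-3.57 ± 0.30, adjusted p = 3.8e-09). Psmc1 read 27.1 and 29.2 CPM against 249 and 328 CPM (-3.36 ± 0.27, adjusted p = 1.6e-09). At DIV0 the endothelial markers summed to 2.42 CPM or less with 6 of 8 at 0 (Kdr and Pecam1 were detected), and the erythroid markers to 1.14 CPM or less with 9 of 10 at 0, so those markers differ between the 2 groups as the members do, and their part in the difference was not tested.

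At the later stage the order was opposite. 12 of 43 members were called higher in DIV28 than at P21 and 0 lower, against 13.3% and 13.1% of all genes, with a median difference of 0.75 against 0.03. Psme1 read 17.2, 19.03 and 11.9 CPM at DIV28 and 4.999, 4.68 and 5.13 CPM at P21 (1.70 ± 0.22, adjusted p = 2.0e-06). Psma6 read 22.8, 19.03 and 13.47 CPM and 4.74, 5.72 and 8.21 CPM (1.55 ± 0.25, adjusted p = 2.3e-05). Psmc1 read 79.2, 117 and 58.3 CPM and 25.3, 39.2 and 30.3 CPM (1.43 ± 0.21, adjusted p = 7.4e-06). No DIV28 library fell into the P21 range for these genes. On the scales of the separate tissue and culture fits, the oligodendrocyte markers summed to 1225 to 1640 CPM at P21 and 7.92 to 11.1 CPM at DIV28, where Mog, Mag, Mobp and Sox10 were at 0, and the astrocyte markers to 342 to 433 CPM and 104.5 to 170 CPM. Their part in the difference was not tested. The count rests in part on single libraries, with 19 called without DIV28 replicate 3 and 7 without DIV28 replicate 2.

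The change from DIV0 to DIV28 was then tested against the change from E13.5 to P21 as an interaction. It differed in 33 of 43 members, each with the more positive change in culture, against 24.2% of all genes in that direction and 17.5% in the other. The median interaction was 2.63, against 0.16 over all genes. The highest value was that of Psmd10 (5.005 ± 0.73), a gene near the floor with 5 and 6 counts at DIV0 and 4, 2 and 6 counts at P21. Psmd10 was abundant enough to be tested only through E10.5 and E13.5. Psma6 (4.84 ± 0.38), Psmc1 (4.79 ± 0.34) and Psme1 (4.77 ± 0.33) came next. Psmf1 (-1.001 ± 0.27, adjusted p = 0.0027) and Psme4 (-0.75 ± 0.25, adjusted p = 0.012) were the 2 members with a negative value, and neither was called.

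**Figure D5:**
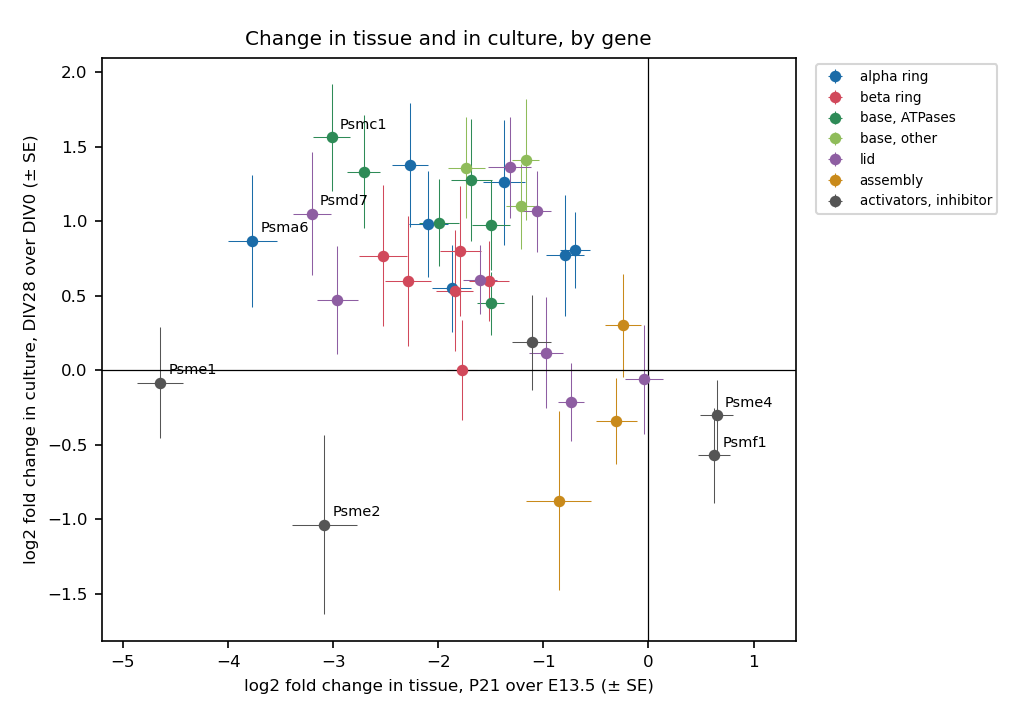
For each gene tested in tissue and in culture, the log2 fold change from E13.5 to P21 (x axis) and from DIV0 to DIV28 (y axis), each with its standard error and coloured by role. Most points lie in the upper left, lower with age in tissue and higher with days in culture, and Psme4 and Psmf1 lie in the lower right.

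Other genes of the pathway were read from a list of 30 partners, ubiquitin genes and regulators. From E13.5 to P4, all 30 were tested, and 13 were called lower and 3 higher, where 19.0% and 23.8% of all genes were called, with a median of -0.79 against 0.12 over all genes. Rps27a, a ubiquitin and ribosomal protein fusion gene, had the lowest value, from 305 and 391 CPM to 40.9, 37.3 and 35.5 CPM (-3.20 ± 0.17, adjusted p = 2.4e-10). Zfand2a, a stress-induced proteasome partner, had the highest, from 7.14 and 10.3 CPM to 27.1, 18.6 and 19.1 CPM (1.28 ± 0.22, adjusted p = 6.8e-05). All groups were separate in both genes.

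The transcription factors that induce proteasome genes had unlike fitted changes. Nfe2l1 read 77.3 and 100 CPM at E13.5 and 76.4, 69.9 and 88.8 CPM at P4, with overlapping groups (-0.18 ± 0.16, adjusted p = 0.32). Nfe2l2 read 37.6 and 49.1 CPM and then 12.5, 5.63 and 6.92 CPM (-2.38 ± 0.38, adjusted p = 2.7e-05), and it was at 2.15 CPM or less at P21. Both were higher in DIV28 than at P21, by 1.06 ± 0.19 for Nfe2l1 and 3.65 ± 0.51 for Nfe2l2. With TTX neither was called (-0.17 ± 0.28 and 0.32 ± 0.33).

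Promoter accessibility was present throughout. A gene's promoter was counted as open when an ATAC-seq peak overlapped the 500 bp on either side of its start. 46 or 47 of the 49 member promoters (93.9% to 95.9%) were open in each of the 22 libraries, against 79.1% to 83.3% of the 15020 promoters of tested genes. All 43 tested members were open in all 22 libraries, including E13.5 and P4. Psma8 and Psme2b had no peak in any library, Psmb11 had a peak in 5 and Psmb10 in 21 of 22. Psmb8 and Psmb9 had a peak in all 22 libraries, although their transcripts were near 0.

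The median peak height of members, as fold enrichment over the local background of the same library, moved with that of all tested genes from E13.5 to P4. The median over members was 17.8 and 28.6 in the E13.5 libraries and 10.49 and 11.6 at P4, while over all tested genes it was 15.0 and 23.1, and 9.35 and 10.46. At Psme1 the values were 19.5 and 12.9 at E13.5, 8.48 and 10.3 at P4, 4.27 and 5.09 at P13, and 3.10 and 3.71 at P21. At DIV0 they were 13.7 and 9.86. Over all tested genes the medians were 9.67 and 10.4 at P13, 9.60 and 10.7 at P21, and 13.9 and 14.65 at DIV0. These heights are not scaled between libraries and were not tested.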

How the data were processed

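RNA was sequenced in 28 libraries, with totals of 2704682 to 21823500 counts, and ATAC-seq peaks were listed for 22 libraries. For RNA, the authors aligned reads to mm10 with STAR 2.5.2b and estimated counts with RSEM 1.3.0, and the deposited values used here are expected counts per gene, without normalisation, and TPM, which is scaled for length and depth. For ATAC-seq, the authors called peaks with MACS2 2.2.7.1 in each library at a p limit of 0.01, and the deposited lists give each peak's fold enrichment, a ratio to the background of its own library, and its −log10 q, while the reads behind them are not given. Replicates were separate pools of animals or cultures, so p-values measure the spread between pools.

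Expected counts were rounded. Genes were kept if some group had 5 CPM or more in each of its replicates, which left 15030 genes in the 18 tissue libraries, 12890 in the 10 culture libraries and 15521 in the 25 libraries without TTX. Each set was scaled with TMM factors and fitted with edgeR 4.0.16 (quasi-likelihood, R 4.3.3), with 14 comparisons in all, and standard errors were taken from the fold change and its F statistic. CPM values use the factors of the fit they are compared in. The members and gene lists were chosen with earlier results of these data known. All 49 members were counted, and those named with values by library were the catalytic pairs, the PA28 and PA200 activators, Psmd4, Psmd14, Psmd5, Psmg1, the extremes of each role from E13.5 to P4, members called against the main direction and, of the pathway genes, the extremes and Nfe2l1 and Nfe2l2. Psmd10 and the others named beside them were chosen after their values were seen.

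Alternatives were DESeq2 1.42.0, other scaling factors, no filter, fits of the compared libraries only, each library left out, the replicate number as a block, the adjusted p as the limit and the title of the library labelled DIV0 replicate 3. The direction within TTX pairs was counted after seeing the data. The titles of DIV28 and DIV28 with TTX libraries give replicate numbers, and neither they nor the study's methods state that equal numbers are pairs. In a check the 3 same-numbered pairs deviated together (r = 0.631, 0.544 and 0.704 after removing group means). On that basis these numbers were treated as pairs. No other same-numbered groups were paired. The fit was tested on simulated counts. Each simulated gene had 1 mean in all groups apart from the given change, with the dispersion of the same fit. The recovery therefore does not cover genes near the floor in 1 group. A true 2-fold change lies at the 2-fold limit, which by itself leaves many such genes uncalled. For E13.5 to P4, with 15030 genes, calls recovered 89 of the 94 genes given a 4-fold change and 34 of the 89 given a 2-fold change. For DIV0 to DIV28, with 12890 genes, they recovered 75 of 92 and 12 of 88.

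Promoter peaks were peaks within 500 bp of the gene start in the mm10 annotation. Tables and figures were made with Python 3.11.15, pandas 2.3.3 and matplotlib 3.10.9.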

Additional observations from a re-analysis of the deposited data

Results flagged for a closer look

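The change from DIV0 to DIV28 and the change from E13.5 to P21 differed in 33 of the 43 tested proteasome genes when the difference itself was tested as an interaction (edgeR, unadjusted p under 0.001 and at least 2-fold). Among the genes named in the text the difference in log2 change was 4.79 for Psmc1, 4.77 for Psme1, 4.46 for Psmd7 and 3.89 for Psmb5, each more positive in culture than in tissue. Psmb5 had few counts here, 21 and 16.5 at DIV0 and 9, 15 and 11 at P21, and was not abundant enough to be tested in the culture fit. Markers of endothelial, erythroid and dividing cells were high at E13.5 and, except for dividing cells, near 0 at DIV0, and their part in these differences was not tested.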

How the results depend on the processing

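Of 182 recomputed counts of called members 155 stayed within 1.5 times and 27 moved, and of 1152 recomputed log2 changes of named members 1088 kept their direction and their side of the limit, 54 no longer passed it, 8 newly passed it and 2 changed sign. The 2 were Psme4 (-0.091) and Psmf1 (-0.035) from E13.5 to P4 with no filter on low counts. From E13.5 to P4 between 29 and 33 members were called when 1 library was left out. From P4 to P13, 2 members in place of 4 were called with DESeq2, median-of-ratios or upper-quartile factors, no filter, or the compared libraries only, and 2 to 4 with a library left out. From DIV0 to DIV7 the count rose from 0 to 1 without the filter, with the compared libraries only or with the adjusted p as limit. From DIV0 to DIV28, 1 became 7 with DESeq2, 8 without the filter, 2 with the compared libraries only, 10 with the adjusted p as limit and 0 with the library titled DIV0 counted as DIV0, and leaving out a library gave 0 to 4. For DIV28 against P21, 12 became 7 with the compared libraries only, and 7 to 19 with a library left out. From P56 to 2 years it was 0 to 1. Where a group had 2 libraries, the remaining library was assumed to vary like the other groups. With a replicate block the counts were 2 from DIV0 to DIV7, 3 from DIV7 to DIV28 and 11 from DIV0 to DIV28, where numbers did not pair the libraries. With TTX the count was 0 under each alternative run, including the block in all culture libraries and, added after seeing the data, in the 6 compared libraries, and the block changed no other call count by over 1.5 times. Upper-quartile factors moved the median of all genes by 0.33 for DIV0 against E13.5 and by -0.37 for the interaction, and relative to it the members were at -1.72 under both scalings and at 2.46 in place of 2.47. The causes were not tested. Depth limits the immunoproteasome genes and Psmd10, Psmg1, Psmg2 and Psmg4, and in culture also Psmb5.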

Other observations

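The size of the fall from E13.5 to P4 varied with transcript length among the proteasome genes. Across the 43 tested members Spearman's rho between transcript length and log2 change was 0.50, and across all 15030 tested genes it was 0.22, a description across genes, which are not independent and share libraries. With all tested genes split into 4 classes of equal size by length, 27 members lay in the shortest class, where their median was -1.68 against -0.53 for all genes of that class, and 11 lay in the next class, where it was -1.17 against -0.01.

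Counts of several members were not whole (by more than 0.005), as RSEM gives when reads match more than 1 gene. Psma3 had such counts in 27 of 28 libraries, Psma4 in 25, Psmd1 in 24, Psmb3 in 20 and Psma5 in 19, so their levels depend on how shared reads were divided. Psme2 had them in 11 of 28 libraries and Psmb5 and Psmc1 in 9.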
